A study of Mus musculus with 8 samples.

Results

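The Pax genes encode transcription factors that bind DNA through the paired domain and act in the choice of cell fate in the brain, ear, skeleton, muscle, pigment cells, pharynx and B cells. The 8 Pax genes examined were Pax1, Pax2, Pax3, Pax5, Pax6, Pax7, Pax8 and Pax9, taken by symbol from the 32285 counted genes with no threshold on a measured value. Their RNA was counted in nuclei of the petrous temporal bone (PTB), which houses the inner ear, and of the paraflocculus and flocculus (PF/F), the cerebellar lobules that sit in a recess of this bone. Nuclei came from postnatal day 5.5 mice, either WT or Tbx1+/-. The Tbx1+/- mice lack 1 copy of the transcription factor gene Tbx1 in every cell, and the strain had been backcrossed to C57BL/6J. Mice of both sexes were used in the study. Each tissue had 2 WT and 2 Tbx1+/- libraries, and each of the 8 libraries pooled nuclei of 5 mice, so that differences between single mice cannot be seen. The study describes 2 separate batches of mice. The 2 replicate numbers are taken here as these batches, which the sample labels do not state. Frozen PTB was pulverised before nuclei were released, whereas PF/F was only chopped.

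Levels are counts of unique molecular identifiers (UMIs) per 1000000 UMIs (CPM) in the summed nuclei of 1 type in 1 library. Annotated nuclei numbered 5981 to 9977 in each PTB library, with median depths of 3853 to 4758 UMIs. Each PF/F library had 9153 to 13835, with median depths of 2610 to 3503 UMIs. In all there were 31076 annotated PTB nuclei in 15 types and 48237 annotated PF/F nuclei in 16 types. Any pair of libraries shared 0.313% to 0.652% of the barcodes of the smaller one. The types are the authors' clusters of these same genes, and the authors used Pax2 as a marker of the GABAergic lineage, so levels between types are given without a test. The 13 PF/F types with a marker list use 12 lists, and each list was highest in a type it is for, with GABA.interneuron behind Diff.GABA.interneuron. The 15 PTB types share only 4 lists, which were highest in CT1, matured chondrocytes, osteoblasts and osteoclasts. CT2 to CT4 ranked 3, 4 and 7 of 15 for the connective tissue list, and CP6 ranked 9 for the chondrocyte list, the lowest of the types that share it. Tbx1 itself was at 38.9 and 39.4 CPM in WT and at 26.3 and 35.7 CPM in Tbx1+/- over annotated PTB nuclei, lower in both Tbx1+/- libraries, and had 4 to 13 UMIs in each PF/F library. Over all PTB barcodes it was at 39.3 and 46.3 CPM in WT and at 27.6 and 40.1 CPM in Tbx1+/-, lower in Tbx1+/- within each batch, although the ranges over both batches overlap. Whether the counted 3′ end lies in the deleted part is not given in the sources used here. The counts are not corrected for RNA free in the suspension. Free RNA was not estimated here. Immune nuclei of the PF/F and osteoclasts of the PTB, which are not known for most Pax genes, are given beside the levels for comparison. They are no measure of background, since several types were below immune nuclei for Pax2 and Pax6.

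All 8 genes share the paired box, the part of the coding sequence that gives the family its name. Because this shared stretch defines the family and its subgroups, 90 bases of it are shown for each gene. They were read from GENCODE vM21 transcripts in 5′ to 3′ direction of the RNA, with GRCm38 (mm10) positions, and capitals mark the 42 bases that are identical in all 8 genes.
Pax1 (chr2:147365753-147365842, plus strand): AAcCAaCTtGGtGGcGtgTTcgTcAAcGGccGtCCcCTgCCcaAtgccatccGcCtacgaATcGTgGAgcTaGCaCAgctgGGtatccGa
Pax2 (chr19:44760892-44760981, plus strand): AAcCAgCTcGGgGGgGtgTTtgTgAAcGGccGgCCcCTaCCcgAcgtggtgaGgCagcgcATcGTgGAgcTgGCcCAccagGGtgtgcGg
Pax3 (chr1:78195368-78195457, minus strand): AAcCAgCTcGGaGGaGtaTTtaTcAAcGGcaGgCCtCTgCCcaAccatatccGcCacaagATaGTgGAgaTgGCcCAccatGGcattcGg
Pax5 (chr4:44697584-44697673, minus strand): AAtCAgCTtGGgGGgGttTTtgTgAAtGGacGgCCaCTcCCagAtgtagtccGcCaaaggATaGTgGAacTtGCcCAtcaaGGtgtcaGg
Pax6 (chr2:105683842-105683931, plus strand): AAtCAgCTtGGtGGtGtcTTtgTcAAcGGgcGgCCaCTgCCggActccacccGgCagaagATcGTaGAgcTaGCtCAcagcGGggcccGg
Pax7 (chr4:139830255-139830344, minus strand): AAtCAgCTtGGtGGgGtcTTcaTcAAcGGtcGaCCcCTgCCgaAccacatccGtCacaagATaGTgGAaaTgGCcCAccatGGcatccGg
Pax8 (chr2:24444628-24444717, minus strand): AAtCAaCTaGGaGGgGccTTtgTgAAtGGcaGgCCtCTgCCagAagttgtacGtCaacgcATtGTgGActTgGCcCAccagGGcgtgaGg
Pax9 (chr12:56696594-56696683, plus strand): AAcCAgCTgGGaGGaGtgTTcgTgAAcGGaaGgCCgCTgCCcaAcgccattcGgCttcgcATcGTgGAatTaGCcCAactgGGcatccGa
Over this window 18 of the 30 encoded residues are the same in all 8 genes. The window was picked as the stretch of 30 codons within an exon with the most such residues, so this share is a maximum. By the 4 known subgroups, Pax1 goes with Pax9, Pax3 with Pax7, and Pax2 with Pax5 and Pax8. Pax6 is the only gene of its subgroup among these 8. Pairs within a subgroup were 74.4% to 83.3% identical in base sequence over 5 pairs. The 23 pairs between subgroups were 60.0% to 73.3% identical.

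In the PF/F, Pax2, Pax3 and Pax6 were highest in different types of the cerebellar lineages, although Pax3 and Pax6 were both found in most GABA.interneuron.progenitor nuclei and astroglia. Pax2 was highest in differentiated GABAergic interneurons, Pax3 in their progenitors, and Pax6 in granule neuron progenitors (GNP). These patterns were present in each of the 4 libraries.

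Pax2 (ENSMUSG00000004231, chr19:44756045-44837871, plus strand) is known to mark precursors of inhibitory interneurons in the cerebellum. In Diff.GABA.interneuron nuclei it was at 526 and 659 CPM in WT and at 501 and 597 CPM in Tbx1+/-, a mean of 571 ± 71.6 CPM (SD, n = 4). In GABA.interneuron.progenitor nuclei it was at 154 and 222 CPM in WT and at 161 and 179 CPM in Tbx1+/-. The ranges of these types did not overlap each other or that of any other type. Immune nuclei followed with 36.2, 50.3, 26.9 and 12.7 CPM, and all other types had means at or below theirs. GABA.interneuron nuclei were among these, at 10.6 ± 7.24 CPM (SD, n = 4). Of all 11432 Pax2 UMIs in annotated PF/F nuclei, 76.2% lay in Diff.GABA.interneuron, which held 8.7% of all UMIs. A Pax2 UMI was found in 76.4% of these nuclei, 69.1% to 83.8% by library, against 3.90% of immune nuclei. After each nucleus was thinned to 1000 UMIs, which left out none of them, the shares were 41.7% and 1.56%. Median UMIs by library were 3083 to 4141 in Diff.GABA.interneuron and 2474 to 2841 in immune nuclei.

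Pax3 (ENSMUSG00000004872, chr1:78101267-78197134, minus strand) acts in the dorsal neural tube and neural crest. It was at 1103 and 1485 CPM in WT and at 1157 and 1480 CPM in Tbx1+/- in GABA.interneuron.progenitor nuclei. Astroglia had 633 and 846 CPM in WT and 644 and 780 CPM in Tbx1+/-. Nuclei called RL.early, of the early rhombic lip, had 565 and 617 CPM in WT and 468 and 599 CPM in Tbx1+/-. Among the 16 types, RL.early ranked 1 for the choroid plexus list, at 1015 CPM, and the chondrocyte list, at 157 CPM. It was also highest for the hair cell, inner ear epithelium, melanocyte and neutrophil/myeloid progenitor lists, at 14.4 to 52.4 CPM. For astroglia RL.early ranked 4, at 1467 CPM, and for granule neuron progenitors 9, at 321 CPM. The first 6 types in order of Pax3 were GABA.interneuron.progenitor, astroglia, RL.early, GNP, oligodendrocytes and immune nuclei, and the first 5 were each above the next in all 4 libraries with no overlap of their ranges. Immune nuclei had 93.5 ± 15.8 CPM (SD, n = 4). Diff.GABA.interneuron, the type highest in Pax2, was at 81.9 ± 11.4 CPM (SD, n = 4), below the immune mean. Astroglia held 48.2% of the 39835 Pax3 UMIs and 15.3% of all UMIs. A Pax3 UMI was found in 90.0% of GABA.interneuron.progenitor nuclei, 83.6% of astroglia and 11.4% of immune nuclei. After thinning these shares were 67.0%, 49.2% and 3.12%. Median UMIs were 2420 to 3121 in the progenitors.

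Pax2 and Pax3 were also counted together in single nuclei. Among GABA.interneuron.progenitor nuclei with a Pax2 UMI, 80.2% in each WT library, and 70.1% and 86.6% in the Tbx1+/- libraries, also had a Pax3 UMI. Among progenitors without a Pax2 UMI, 91.1% and 96.4% in WT and 91.2% and 95.1% in Tbx1+/- had one. The share was lower with Pax2 in 4 of 4 libraries. In Diff.GABA.interneuron the order was the opposite in 4 of 4 libraries, with Pax3 UMIs in 17.4% to 23.4% of nuclei with Pax2 and in 10.1% to 15.6% of those without. These shares are a description of nuclei, which are not replicates, and nuclei with a UMI of 1 gene tend to be deeper. The part of depth was not tested.

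Pax6 (ENSMUSG00000027168, chr2:105668900-105697364, plus strand) is known for its role in the eye and in the granule cell lineage that leaves the rhombic lip. In GNP it was at 637 and 532 CPM in WT and at 703 and 527 CPM in Tbx1+/-. Differentiated granule neurons had 525 and 422 CPM in WT and 564 and 401 CPM in Tbx1+/-. GNP were above them in 4 of 4 libraries, although the ranges overlapped. The same held for the next steps, from these neurons to GABA.interneuron.progenitor (405 ± 77.8 CPM, SD, n = 4) and from there to astroglia (379 ± 81.8 CPM). RL.early was lower, at 228 ± 68.7 CPM. Immune nuclei had 145, 151, 202 and 104 CPM, and 8 other types, among them Diff.GABA.interneuron at 114 ± 46.9 CPM and Purkinje nuclei at 45.1 ± 19.5 CPM, had lower means. A Pax6 UMI was found in 76.6% of GNP, 73.3% of differentiated granule neurons, 64.0% of GABA.interneuron.progenitor nuclei and 65.0% of astroglia. It was found in 26.4% of Diff.GABA.interneuron and 27.5% of immune nuclei. After thinning these shares were 45.1%, 38.5%, 32.0%, 30.2%, 9.22% and 12.99%, in the same order. The share in Diff.GABA.interneuron was below that in immune nuclei.

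Pax6 differed between the replicate numbers. Over all annotated PF/F nuclei it was at 414 CPM in WT and 476 CPM in Tbx1+/- of replicate 1, and at 319 CPM in WT and 301 CPM in Tbx1+/- of replicate 2. Both libraries of replicate 1 were above both of replicate 2 in 14 of 16 types. Among all pairs of a type and a gene with a mean of at least 10 CPM in it, 27.0% had replicate 1 above replicate 2 in this way, and in the sums over all nuclei 40.8% of 10859 genes did. Pax2 and Pax3 did so in 3 types each.

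Pax5 (ENSMUSG00000014030, chr4:44524757-44710487, minus strand), which acts at the boundary of midbrain and hindbrain and in B cells, was low in the PF/F. Its highest measured level was in the 152 nuclei called Progenitors, with 12.7 and 25.7 CPM in WT and 45.6 and 27.7 CPM in Tbx1+/-. These values rest on 3, 7, 6 and 18 UMIs. Progenitors were above astroglia, the next type at 6.58 ± 0.845 CPM (SD, n = 4), in all 4 libraries with no overlap. Among the 16 types, Progenitors ranked 3 for the neuron marker list, at 2479 CPM, 5 for the granule neuron list, at 1043 CPM, and 2 for the choroid plexus list, at 826 CPM. They were highest only for the erythroid list, at 12.7 CPM, and ranked 16 of 16 for the lists of astroglia and of granule neuron progenitors. GNP had 5.85 ± 0.978 CPM of Pax5 and immune nuclei had 2 UMIs in all.

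The other 4 genes were close to 0 in annotated PF/F nuclei. Pax1 had 12 UMIs in all, Pax7 16, Pax8 17 and Pax9 31. Of the Pax9 UMIs, 11 lay in the 585 RL.early nuclei, at 1.86 and 8.43 CPM in WT and 4.07 and 3.52 CPM in Tbx1+/-. These levels rest on 1, 5, 2 and 3 UMIs and were above those of astroglia, at 0.265 to 0.594 CPM, in all 4 libraries. GNP had no Pax9 UMI, which allowed at most 0.514 CPM in any library. This is below the measured levels of RL.early, whose own counting error at 1 to 5 UMIs was not taken into account. Pericytes and immune nuclei, also without a Pax9 UMI, cannot be ranked below RL.early, since a count of 0 allowed up to 86.1 CPM and up to 13.4 CPM there. Of the 5 Pax8 UMIs in GABA.interneuron nuclei, all were in 1 nucleus of Tbx1+/- replicate 2.

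**Figure D1:**
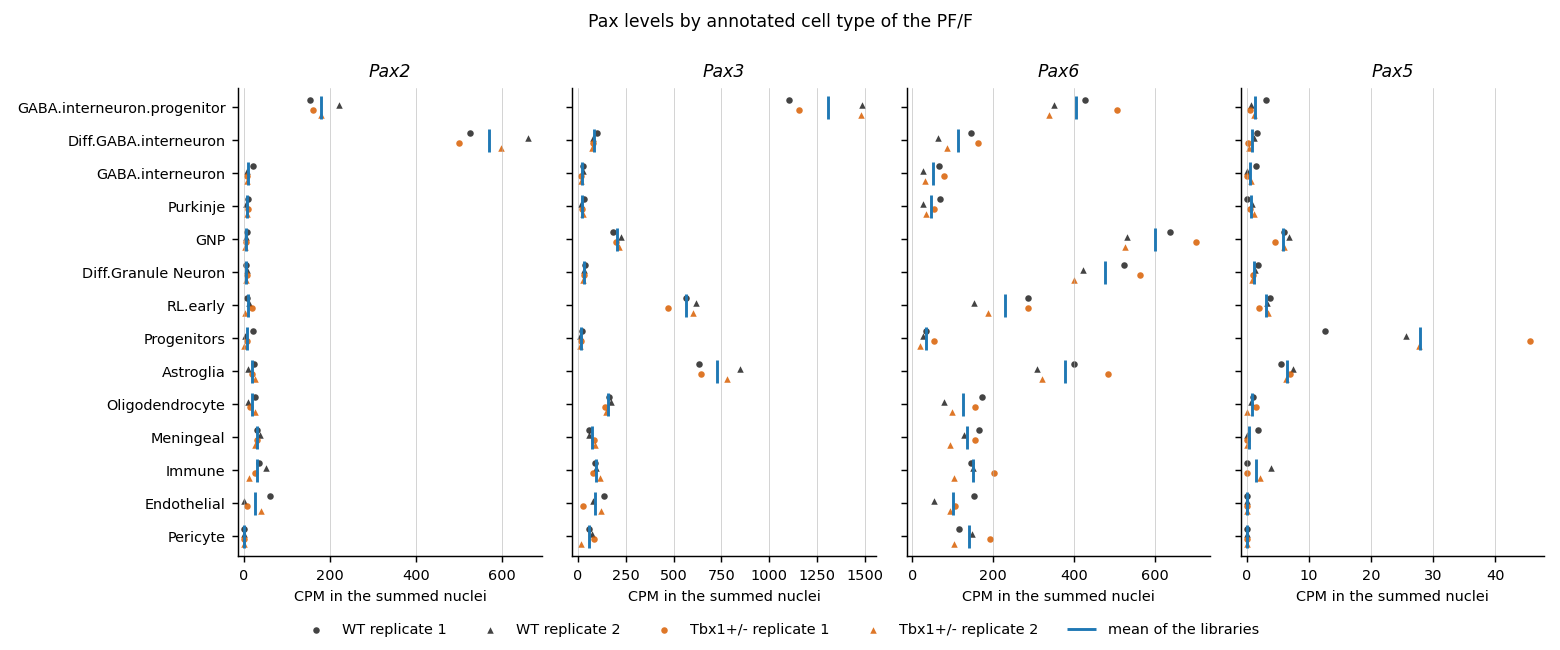
Levels (CPM, linear axes that differ between panels) of Pax2, Pax3, Pax6 and Pax5 in 14 of the 16 annotated types of the PF/F. Points are libraries (black WT, orange Tbx1+/-, circles replicate 1, triangles replicate 2) and blue lines are the means of the 4 libraries. Pax2 peaks in Diff.GABA.interneuron at 571 CPM, Pax3 in GABA.interneuron.progenitor at 1306 CPM, Pax6 in GNP at 600 CPM and Pax5 in Progenitors at 27.9 CPM.

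In the PTB the annotated nuclei are of connective tissue (CT1 to CT4), chondrocyte progenitors (CP1 to CP6), cartilage and bone. Pax9 and Pax1, a pair that acts in the sclerotome and in the pharyngeal pouches, were the genes that reached a mean of 10 CPM in a type, and both did so in CT1. The means of the other 6 genes stayed below this level in every annotated PTB type.

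Pax9 (ENSMUSG00000001497, chr12:56691767-56712822, plus strand) was at 42.0 and 54.1 CPM in WT and at 30.6 and 21.2 CPM in Tbx1+/- in CT1. These levels rest on 214, 85, 103 and 10 UMIs. CT2, the next type, had 9.95 and 7.07 CPM in WT and 2.82 and 4.53 CPM in Tbx1+/-, and the ranges of CT1 and CT2 did not overlap. CT1 held 63.8% of the 646 Pax9 UMIs and 6.9% of all UMIs. Osteoclasts had 1.18 ± 1.19 CPM (SD, n = 4).

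Pax1 (ENSMUSG00000037034, chr2:147361925-147393295, plus strand) was at 9.61 and 12.7 CPM in WT and at 6.84 and 17.0 CPM in Tbx1+/- in CT1. CT1 was above CT3, at 5.60 ± 1.92 CPM (SD, n = 4), in all 4 libraries, although the ranges overlapped. The 4 CT types were the first 4 in the order of Pax1. Osteoclasts had 0.870 ± 0.832 CPM. Of the 100 Pax1 UMIs of CT1, 49 were in WT replicate 1 and 8 in Tbx1+/- replicate 2, the library with the highest level.

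Pax7 (ENSMUSG00000028736, chr4:139737062-139833528, minus strand), the gene of muscle satellite cells, had 93 UMIs in annotated PTB nuclei, of which CT1 held 75.3%. Its CT1 levels were 10.2 and 3.82 CPM in WT and 3.57 and 0 CPM in Tbx1+/-. Of the 70 UMIs, 52 came from WT replicate 1, where 24 nuclei held one and the highest held 8. The 4 nuclei there with at least 4 Pax7 UMIs held 4, 8, 7 and 5 of them. In this order they held 2, 7, 0 and 3 UMIs of muscle precursor markers. They also held 0, 3, 1 and 3 UMIs of Schwann cell markers and 1, 4, 0 and 2 of neuron markers. Chondrocyte markers had 2, 2, 4 and 0 UMIs in them. The share of other CT1 nuclei with such UMIs was not counted. Without WT replicate 1 the CT1 mean of 4.40 CPM became 2.46 CPM. The count of 0 in Tbx1+/- replicate 2 allows up to 6.37 CPM, so a level like that of WT replicate 2 was not detectable there. In 8 of the 15 types Pax7 had no UMI.

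Pax3 was spread over the PTB types, with means from 0.474 CPM in CT4 to 6.20 CPM in CP2. Osteoblasts had 3.24 and 6.66 CPM in WT and 5.70 and 6.13 CPM in Tbx1+/-, and osteoclasts had 2.35 ± 1.37 CPM (SD, n = 4). No type was above the next one in its order in all 4 libraries. Pax2, Pax5 and Pax6 had highest means of 4.14, 3.94 and 1.78 CPM, and none of these highest types was above the next one in all 4 libraries. Pax8 (ENSMUSG00000026976, chr2:24420560-24475599, minus strand), a gene of the thyroid, kidney and ear, had 24 UMIs in all.

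**Figure D2:**
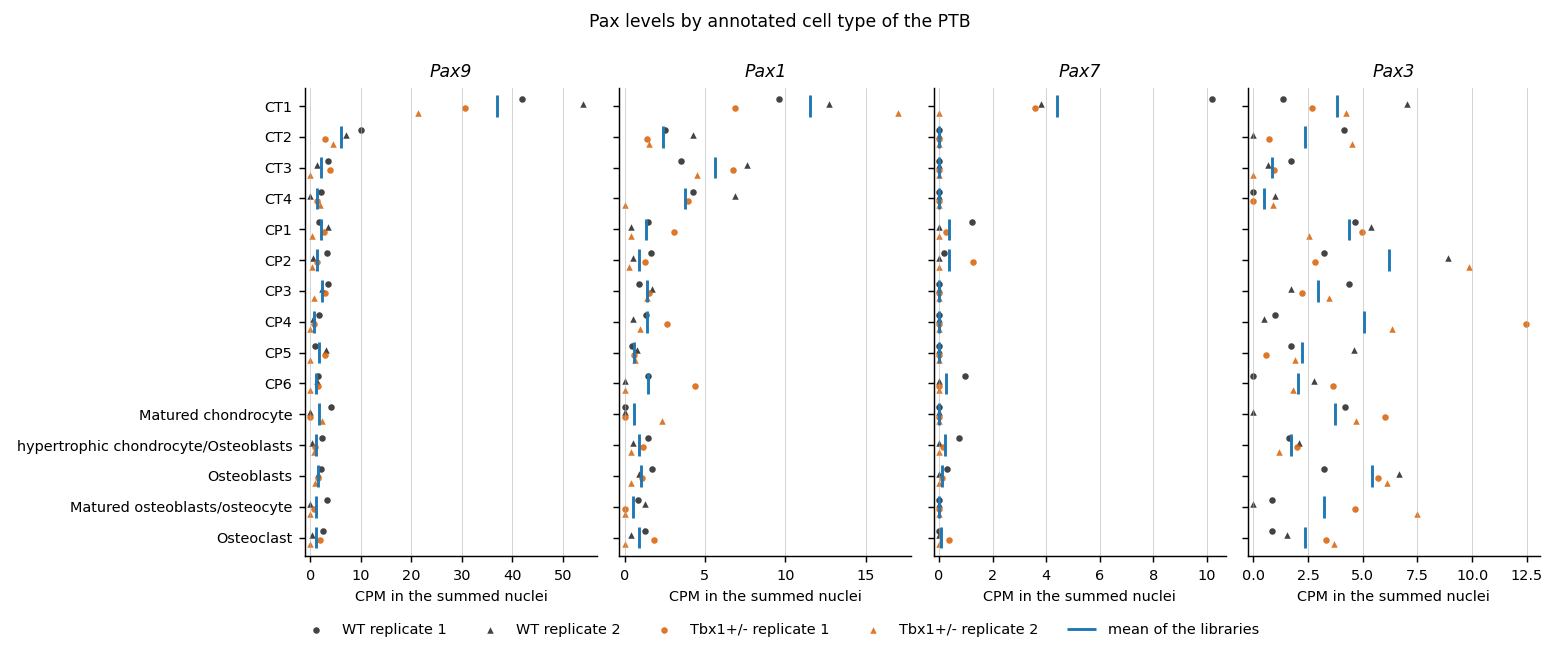
Levels (CPM, linear axes that differ between panels) of Pax9, Pax1, Pax7 and Pax3 in the 15 annotated types of the PTB, with points and lines as in the plot of the PF/F. Pax9 in CT1 lies between 21.2 and 54.1 CPM, above all other types, and Pax7 in CT1 reaches 10.2 CPM in WT replicate 1 and is 0 in Tbx1+/- replicate 2.

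Some of the overlapping transcripts followed the Pax genes. Over the 16 PF/F types the genes with the highest Pearson correlation to Pax2 in log2 of the mean CPM plus 1 were Gm20395 (r = 0.921) and 1700039E22Rik (r = 0.899), both annotated inside the Pax2 gene on its other strand, and the glycine transporter gene Slc6a5 (r = 0.887). Both lie wholly within Pax2 but were counted apart from it, Gm20395 with 1756 and 1700039E22Rik with 838 UMIs in annotated PF/F nuclei. The strand setting of the count is not stated in the sources used here, and misassignment of reads between the strands was not tested. Pax6os1, antisense to the start of Pax6, was at 27.2 ± 1.94 CPM (SD, n = 4) over all annotated PF/F nuclei. The genes closest to Pax6 were Nfix (r = 0.931), Gm5089 (r = 0.924) and Nfib (r = 0.915), of which Nfix and Nfib encode nuclear factor I proteins. Those closest to Pax3 were Cdk5rap2 (r = 0.917), a centrosome gene, Slc25a18 (r = 0.903) and Nhsl1 (r = 0.901). For Pax5 they were the homeobox gene Irx3 (r = 0.825) and Trhr (r = 0.791), the receptor gene of thyrotropin-releasing hormone. Over the 15 PTB types, Pax9 was closest to Pi16 (r = 0.949), the homeobox gene Lhx8 (r = 0.912) and AW551984 (r = 0.911). Pax1 was closest to Cldn1 (r = 0.898), a tight junction gene, Zyx (r = 0.889) and Me3 (r = 0.879). The search covered 15731 genes in the PF/F and 13126 in the PTB, and the types share libraries, so these values describe likeness only.

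Much of the Pax RNA of the PTB lay outside the annotated nuclei. The study kept more PTB nuclei than the annotation used here names, but fewer than the deposited barcodes. The barcodes without a type are therefore a mix of nuclei that the study kept and barcodes that its quality filters left out. These were not told apart here. Of all PTB UMIs 48.9% were in barcodes without a type in the annotation used here, but 96.6% of the 4918 Pax2 UMIs, 85.5% of the 3837 Pax3 UMIs, 76.9% of the 654 Pax5 UMIs, 85.9% of the 1246 Pax6 UMIs and 87.4% of the 191 Pax8 UMIs were there. For Pax1, Pax7 and Pax9 the shares were 62.6%, 45.3% and 56.7%. In the PF/F these barcodes held 15.7% of all UMIs and smaller shares of those of Pax2, Pax3, Pax5 and Pax6, at most 14.2%. The PTB barcodes without a type were sorted by 16 marker lists that hold no Pax gene. A barcode was assigned to a list with at least 3 UMIs in it and more than in any other list. These sets are not cell types, and the meningeal list took 21547 barcodes with 91.0% of its UMIs from Col1a2, a general collagen gene, so that it holds mixed nuclei.

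Pax5, the factor that commits cells to the B lineage, was at 1094 and 1252 CPM in WT and at 398 and 1467 CPM in Tbx1+/- in barcodes with B lineage markers. These were only 9, 7, 2 and 8 barcodes with 24, 27, 3 and 37 Pax5 UMIs, and 20 of the 26 had one. They hold 91 of the 503 Pax5 UMIs outside the annotation, and the mixed meningeal set holds 333, at 4.12 ± 1.43 CPM (SD, n = 4). In the 2169 barcodes with endothelial markers Pax5 was at 3.25 ± 2.68 CPM (SD, n = 4).

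Pax3, which acts upstream of Mitf in pigment cells, was at 636 and 858 CPM in WT and at 661 and 499 CPM in Tbx1+/- in the 336 barcodes with melanocyte markers. A Pax3 UMI was found in 78.6% of them. In barcodes with Schwann cell markers, the neighbouring neural crest derivative, it was at 6.42 ± 4.35 CPM (SD, n = 4), and in those with endothelial markers at 5.23 ± 5.30 CPM. The libraries of the melanocyte set were all higher than those of both other sets.

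Pax2, which acts in the otic vesicle, was at 144 and 163 CPM in WT and at 153 and 178 CPM in Tbx1+/- in the 365 barcodes with hair cell markers. In the 1907 barcodes with inner ear epithelium markers it was at 34.6 and 46.3 CPM in WT and 37.5 and 45.2 CPM in Tbx1+/-. Barcodes with epithelial markers had 47.7 and 126 CPM in WT and 105 and 137 CPM in Tbx1+/-. Those with melanocyte markers had 27.7 and 77.4 CPM in WT and 59.6 and 143 CPM in Tbx1+/-, and there 34 of 336 barcodes held all 172 UMIs, up to 29 in 1 barcode. The hair cell set was above the inner ear epithelium set with no overlap. Barcodes with endothelial markers had 6.16 ± 1.58 CPM (SD, n = 4). Those assigned to none of the lists had 62.4 ± 37.1 CPM (SD, n = 4), above the mean of 40.9 CPM in the inner ear epithelium set. Median UMIs by library were 6533 to 7611 in the hair cell set and 4418 to 5815 in the inner ear epithelium set. Of the 4749 Pax2 UMIs in barcodes without a type, 2433 lay in the meningeal set, at 31.6 ± 6.10 CPM (SD, n = 4).

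Pax9 and Pax1 stood together in the 319 barcodes with epithelial markers. Pax9 was at 115 and 56.3 CPM in WT and at 59.4 and 0 CPM in Tbx1+/-, and Pax1 at 51.7 and 36.3 CPM in WT and at 59.4 and 0 CPM in Tbx1+/-. The 0 in Tbx1+/- replicate 2 comes from 59 barcodes and allows up to 7.11 CPM, which is below the other 3 libraries for both genes. In Tbx1+/- replicate 1 both genes were above WT replicate 2. Up to 17 Pax1 UMIs and 20 Pax9 UMIs came from 1 barcode. Tbx1+/- replicate 2 also had the fewest CT1 nuclei, 118 against 332 to 1315. Of 32 epithelial barcodes with Pax1, 30 also had Pax9, and none had a Pax2 UMI. These 32 came from 3 libraries. For counting error only, 0 of 32 allows up to 9.38% of such barcodes to hold a Pax2 UMI, which sets no limit on barcodes that express Pax2 without a UMI. Of 40 with Pax9, 1 had Pax2, and 78 of the 319 barcodes had Pax2. This count of shared barcodes was made after the levels had been seen.

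Pax7 was at 18.8 and 1.76 CPM in WT and at 21.5 and 11.8 CPM in Tbx1+/- in the 592 barcodes with myofibre markers, with 24, 1, 17 and 9 UMIs. Only 3 barcodes were assigned to the muscle precursor list. Pax6 was at 18.0 and 48.2 CPM in WT and at 21.5 and 46.5 CPM in Tbx1+/- in the 1229 barcodes with neuron markers, and at 2.26 ± 0.409 CPM (SD, n = 4) in those with endothelial markers. Here replicate 2 was the higher one in both genotypes.

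**Figure D3:**
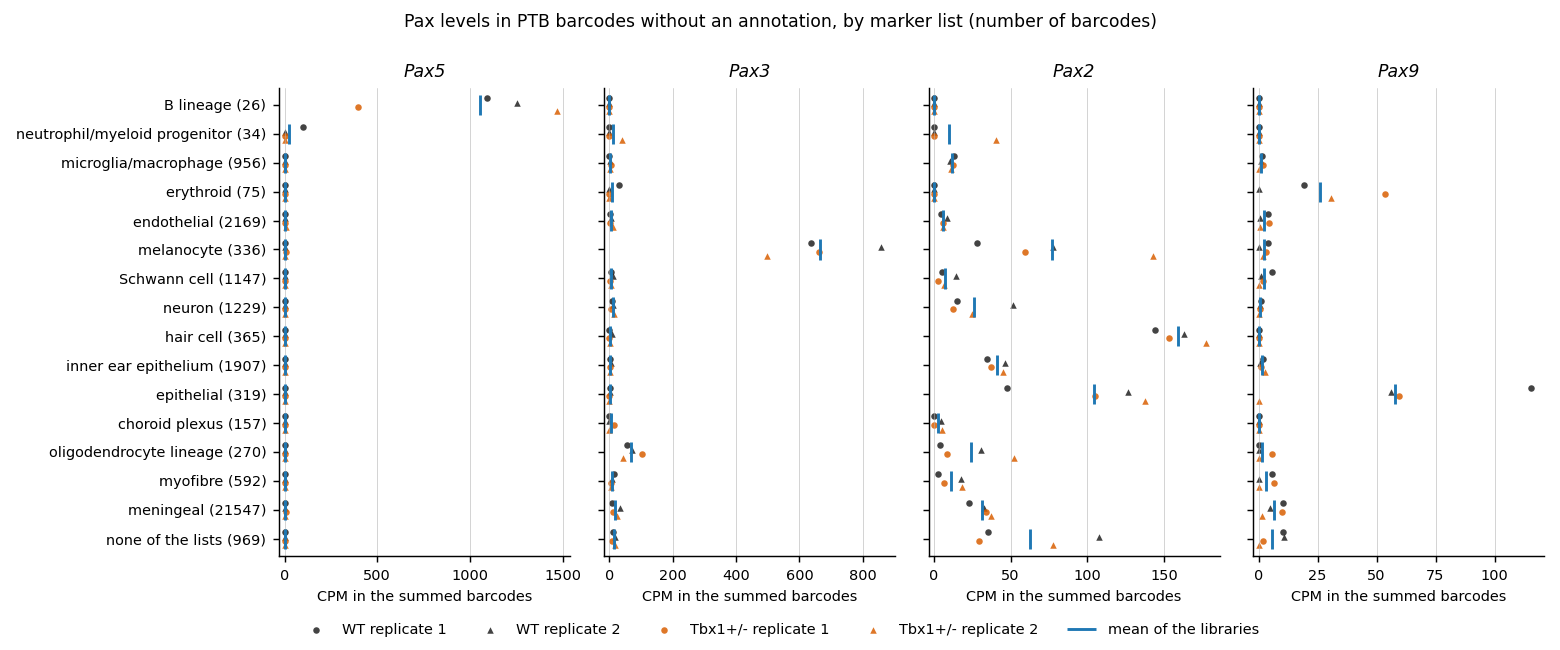
Levels (CPM, linear axes that differ between panels) of Pax5, Pax3, Pax2 and Pax9 in PTB barcodes without a type in the annotation used here, by marker list with the number of barcodes in parentheses. Points and lines are as in the plot of the PF/F. Pax5 stands out in the B lineage set (398 to 1467 CPM) and Pax3 in the melanocyte set (499 to 858 CPM). Pax2 is highest in the hair cell set (144 to 178 CPM), just above the highest libraries of the melanocyte (143 CPM) and epithelial (137 CPM) sets. Pax9 in the epithelial set ranges from 0 to 115 CPM.

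The tissues were compared over the sums of all annotated nuclei. Such a sum cannot tell fewer nuclei of a type from less RNA per nucleus. The tissues also differ in how nuclei were released, which cannot be told apart from the tissue. The sums also cover unlike parts of the tissues. The annotated PTB nuclei are the connective tissue, cartilage and bone part of those the study kept, which also included immune cells and neurons. The PF/F annotation covers all PF/F nuclei that the study kept. Of the 8 genes 7 passed the count filter, and 6 of these were called by edgeR's quasi-likelihood test, that is at a Benjamini-Hochberg adjusted p under 0.05 over 22148 genes and a difference above 1.5-fold. Of all genes 60.4% were called, 28.5% as higher and 31.9% as lower in the PTB.

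Pax6, Pax3, Pax2 and Pax5 were lower in the PTB. Pax6 was at 0.983, 1.79, 0.740 and 1.23 CPM in the PTB libraries and at 414, 319, 476 and 301 CPM in the PF/F libraries, a log2 difference of -8.35 ± 0.29 (SE, adjusted p = 7.06e-08, edgeR). Pax3 was at 2.35 to 4.43 CPM in the PTB and at 219 to 238 CPM in the PF/F (log2 difference -5.97 ± 0.18, adjusted p = 3.87e-08, edgeR). Pax2 was at 0.572 to 1.67 CPM and at 55.4 to 72.2 CPM (log2 difference -5.91 ± 0.24, adjusted p = 1.56e-07, edgeR). Pax5 was at 0.772 to 1.58 CPM and at 2.58 to 3.06 CPM (log2 difference -1.55 ± 0.23, adjusted p = 3.58e-04, edgeR). Over all barcodes in place of annotated nuclei, which brings in the PTB sets described above, these log2 differences were -6.43, -4.08, -1.96 and -0.39, and Pax5 was then no longer past 1.5-fold (adjusted p = 0.0494, edgeR).

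Pax1 and Pax9 were higher in the PTB, where they had 0.829 to 2.47 CPM and 0.972 to 7.15 CPM against 0.0474 to 0.106 CPM and 0.0949 to 0.265 CPM in the PF/F. The log2 differences were 4.65 ± 0.45 for Pax1 (adjusted p = 2.94e-05, edgeR) and 4.37 ± 0.57 for Pax9 (adjusted p = 1.70e-04, edgeR). In the PTB both genes were higher in both libraries of replicate 1 than in both of replicate 2. Pax1 had 2.47 and 2.19 against 1.88 and 0.829 CPM, and Pax9 had 7.15 and 4.09 against 3.97 and 0.972 CPM. Of 10595 PTB genes with a mean of at least 10 CPM, 26.5% had this pattern. Pax1 and Pax9 are not among them, at means of 1.84 and 4.05 CPM, and no share was taken for genes of their level. For these 6 genes the libraries of the tissues did not overlap. The exact two-sided permutation test of 4 against 4 gave p = 0.0286 for each, the smallest it can give. The study's methods describe isolating both tissues from postnatal day 5.5 mice, so PTB and PF/F libraries of the same genotype and replicate number may share mice. This test and the edgeR contrast treated the 8 libraries as independent and used no such pairing. Pax7 was at 1.51, 0.179, 0.518 and 0 CPM in the PTB and at 0.0796 to 0.0963 CPM in the PF/F, which overlap, and was not called (log2 difference 2.37 ± 0.98, adjusted p = 0.0561, edgeR). With the replicate number as a block it was called (log2 difference 2.17, adjusted p = 0.0172, edgeR). Pax8 had 24 PTB and 17 PF/F UMIs and did not pass the filter (exact permutation p = 0.486, two-sided). Over all barcodes Pax8 was at 0.359 to 1.10 CPM in the PTB and at 0.0195 to 0.198 CPM in the PF/F, with no overlap, and was called as higher in the PTB (log2 difference 2.65 ± 0.59, adjusted p = 0.00490, edgeR).

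**Figure D4:**
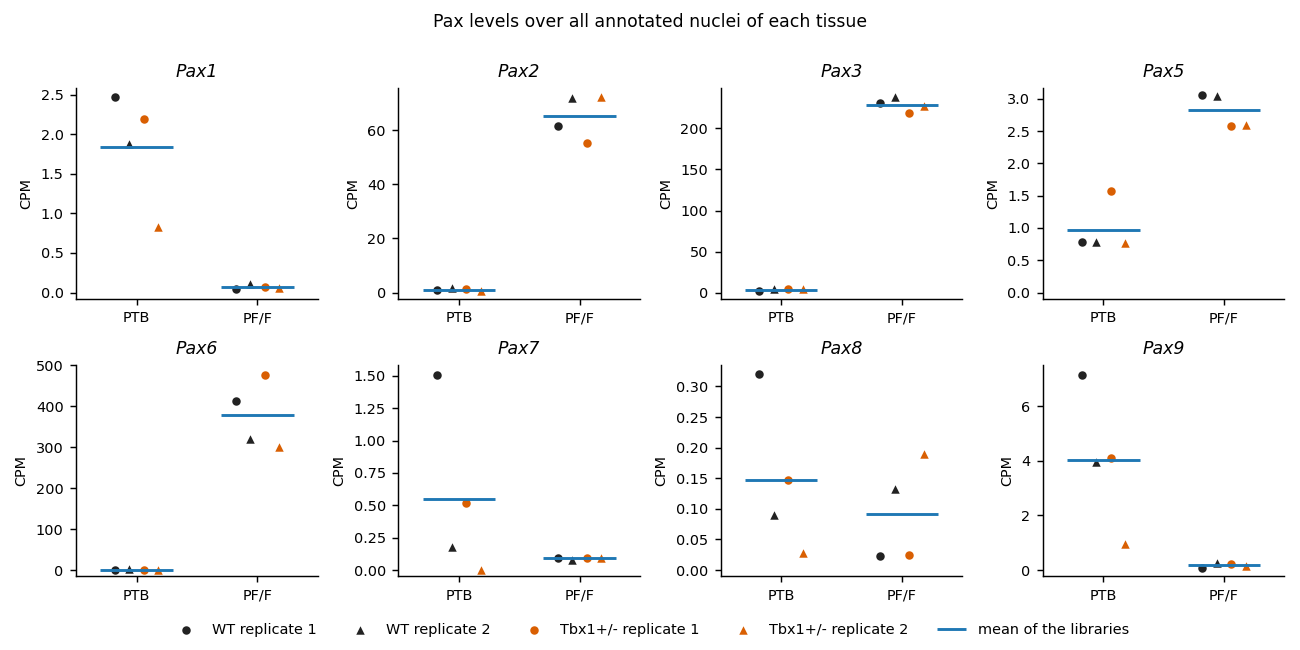
Levels (CPM, linear axes that differ between panels) of the 8 Pax genes over all annotated nuclei of each library in the PTB and the PF/F, with means as blue lines. Pax2, Pax3, Pax5 and Pax6 are higher in the 4 PF/F libraries and Pax1 and Pax9 in the 4 PTB libraries, whereas Pax7 and Pax8 overlap.

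The genotypes were compared within each type to ask whether the loss of 1 Tbx1 copy goes with another level of a Pax gene. No Pax gene was called in any type. In the PTB 9 of 120 pairs of gene and type passed the count filter, covering Pax1, Pax3 and Pax9 in 6 types, and 0 were called by edgeR and 0 by DESeq2, with 2 at an unadjusted p under 0.05. Of all 187198 gene and type pairs tested in the PTB, 0% were called. In the PF/F 41 of 128 pairs passed, covering Pax2, Pax3, Pax5 and Pax6 in 14 types, and 0 were called by either tool, with 1 at an unadjusted p under 0.05. Of all 167207 pairs there, 0.000598% were called. This was 1 gene in Purkinje nuclei, or 0.00778% of the 12851 genes tested in that type. The lowest adjusted p of any Pax gene was 0.9997 in these fits, which had no replicate block (edgeR). With the replicate number as a block it was 0.238, for Pax3 in CP4 (unadjusted p = 5.22e-05, edgeR). With 2 libraries against 2, the exact permutation test cannot go below p = 0.333.

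In the main PF/F types the differences were small. Pax2 in Diff.GABA.interneuron had a log2 difference of -0.10 ± 0.25 (SE), Tbx1+/- minus WT, with an adjusted p of 0.9999 (edgeR). Pax3 in GABA.interneuron.progenitor had 0.03 ± 0.27 and Pax6 in GNP 0.09 ± 0.23, each with an adjusted p of 0.9997 (edgeR). In all 3 the genotypes overlapped. Over the 41 pairs the median was -0.04, with 17 above and 24 below 0, and the median over all genes and types was -0.001. The genotypes did not overlap in 7 of the 41 pairs, against 24.4% of all pairs tested there. The pair with the lowest unadjusted p was Pax2 in immune nuclei, with 36.2 and 50.3 CPM in WT and 26.9 and 12.7 CPM in Tbx1+/- (log2 difference -1.25 ± 0.57, unadjusted p = 0.0496, adjusted p = 1.00, edgeR). It rests on 12, 13, 6 and 6 UMIs. In WT replicate 2, 11 came from 1 nucleus that held 10948 UMIs against a median of 2841 and had 7 UMIs of GABAergic interneuron markers. In Tbx1+/- replicate 1, 4 came from 1 nucleus that held 6288 UMIs against a median of 2558 and had 8 UMIs of these markers. In WT replicate 1, 5 came from 1 nucleus with 4452 UMIs and 0 of these markers.

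In the PTB, Pax9 in CT1 was lower in both Tbx1+/- libraries, at 30.6 and 21.2 CPM, than in both WT libraries, at 42.0 and 54.1 CPM, but was not called (log2 difference -0.74 ± 0.26, unadjusted p = 0.0149, adjusted p = 0.9998, edgeR). The summed connective tissue markers of CT1 were also lower in Tbx1+/-, at 4822 and 3797 CPM against 5363 and 5166 CPM, and their part in the difference was not tested. Pax1 in CT1, which overlapped, had a log2 difference of -0.27 ± 0.47 (adjusted p = 0.9998, edgeR), although its mean CPM ran the other way, at 11.2 CPM in WT and 11.9 CPM in Tbx1+/-, so that no direction is given. Pax3 in CP4 was at 0.996 and 0.494 CPM in WT and at 12.5 and 6.35 CPM in Tbx1+/- (log2 difference 3.52 ± 0.66, unadjusted p = 6.71e-04, adjusted p = 0.9998, edgeR). These are 3, 1, 33 and 13 UMIs. In Tbx1+/- replicate 1, 20 of the 33 lay in 1 nucleus with 4859 UMIs in all, 17 of them of chondrocyte markers, 9 of Schwann cell markers and 0 of melanocyte markers. Without a filter on low counts Pax3 in CP4 was called (log2 difference 3.52, adjusted p = 1.00e-04, edgeR). The genotypes did not overlap in 3 of the 9 PTB pairs, against 26.7% of all pairs tested there.

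**Figure D5:**
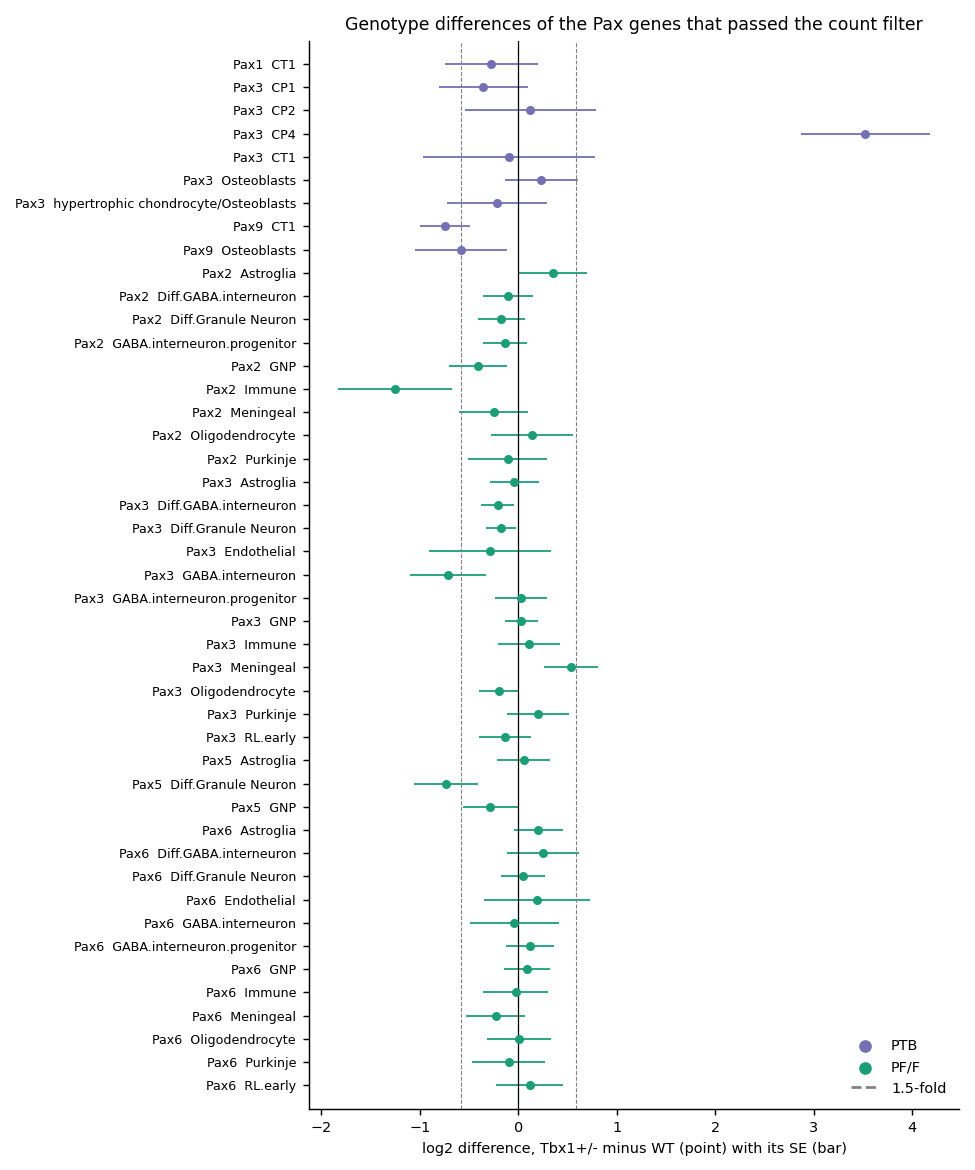
Log2 differences (Tbx1+/- minus WT, edgeR) with their SE for 45 pairs of Pax gene and type that passed the count filter, 9 of the PTB in purple and 36 of the 41 of the PF/F in green. Dashed lines mark 1.5-fold. Pax3 in CP4 stands at 3.52 and Pax2 in immune nuclei at -1.25, and no pair was called in either tissue.

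A test of whether the genotype difference was unequal in the tissues, over the sums of annotated nuclei, called 0 of 7 Pax genes by edgeR and 0 by DESeq2, with 0 at an unadjusted p under 0.05. The log2 differences between tissues in the genotype difference ran from -1.82 for Pax7 to 0.84 for Pax5, all with an adjusted p of 0.9999 (edgeR). Of all genes 0% were called.

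Genes that work beside the Pax factors were followed as 4 lists. Between genotypes none of the members that could be tested was called in any type, and no gene of the GABAergic list passed the count filter in the PTB. The cerebellar GABAergic list, tested over 84 PF/F pairs (median -0.02), was led by Lhx1 at 122 ± 37.1 CPM (SD, n = 4), highest in GNP, and Gad1, which makes GABA, at 95.1 ± 5.62 CPM, highest in Diff.GABA.interneuron. The rhombic lip and granule list (101 PF/F pairs, median 0.01) was led by Meis1 at 758 ± 47.9 CPM and Zic1 at 430 ± 74.4 CPM. The sclerotome and skeletal mesenchyme list (71 PTB pairs, median 0.07) was led by Tbx18 at 191 ± 12.6 CPM and Foxc1 at 60.0 ± 6.13 CPM. The muscle and pigment list (56 PTB pairs, median -0.02) was led by Mitf at 114 ± 8.61 CPM, highest in osteoclasts, and Met at 29.5 ± 2.86 CPM.

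Between tissues, all 10 GABAergic genes were called as lower in the PTB (median log2 difference -7.24), as were 9 of 10 rhombic lip and granule genes (median -4.34), with none higher. Of the 10 sclerotome genes 6 were called as higher and 2 as lower in the PTB (median 3.20). Of the 7 muscle and pigment genes tested, 4 were higher and 2 lower (median 1.98). The median over all genes was -0.04, and the shares called are those given above.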

How the data were processed

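Nuclei of 8 libraries were sequenced with the Chromium 3′ v3.1 kit. The deposited values are raw UMI counts of each gene in each barcode. The authors produced them with Cell Ranger 7.0.0, introns included, on mm10, and their later SoupX correction is not in them. Cell types are the authors' deposited annotation. The study's methods name no step to remove doublets, and none was made here. Barcodes without a type were used with no quality filter.

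UMIs were summed per library and type (Python 3.11.15, numpy 2.4.6, pandas 2.3.3, scipy 1.17.1). Sums of types with at least 10 nuclei per library were compared with the quasi-likelihood test of edgeR 4.0.16, after filterByExpr and with TMM factors, in R 4.3.3, with DESeq2 1.42.0 as an alternative. Calls need a Benjamini-Hochberg adjusted p under 0.05 over all genes and a change above 1.5-fold. The SE of an edgeR value is the log2 change over the square root of F. Limits at 0 use 3 counts and cover counting error only. The tests were run on simulated data first. Pools were replicates of a group, so p-values measure the spread between pools. Without the replicate block this spread includes that between batches.

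The study's methods describe 2 batches, and libraries with the same replicate number were taken as a batch. As a check of this pairing within each tissue, deviations from the group mean were compared between libraries of the same number. They correlated at 0.576 over 10595 PTB genes and 0.839 over 10859 PF/F genes. Whether PTB and PF/F libraries of the same number are 1 batch was not tested. The block was an alternative, beside RLE factors, no count filter, nuclei with at least 2000 genes, leaving out the 8% of nuclei with most UMIs, all barcodes, and leaving out each library. The 8 members, the marker lists and the related gene lists were chosen with earlier results of these data known. Named genes are the members, the 3 genes most correlated with each member that reached 10 CPM in a type, and called list members or else the 2 highest of each list. Positions and transcripts are from GENCODE vM21 (GRCm38). Values of 2 PF/F types, 1 list of related genes and 1 gene correlated with Pax5 are not reported here.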

Additional observations from a re-analysis of the deposited data

How the results depend on the processing

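Between genotypes in the PTB no Pax gene was called under any alternative except no filter on low counts, which gave 1 call, Pax3 in CP4. Leaving out each library gave 0 to 0 calls in the PTB and 0 to 2 in the PF/F. The 2 came without PF/F WT replicate 1, both for Pax2, and 1 of them was in astroglia (log2 difference 1.18, adjusted p = 0.0236, edgeR), where WT replicate 2 is then the lone WT library and assumed to vary like the others. The cause was not tested. With the replicate block 0 Pax genes were called between genotypes, and the block changed no call except that of Pax7 between tissues (log2 difference 2.17). Between tissues 6 or 7 Pax genes were called in each alternative and 6 to 7 when a library was left out. The 7 over all barcodes lacked Pax5 and included Pax7 and Pax8 (log2 difference 2.65), which was not called in the other alternatives that tested it. Pax7 was called with 2.38 without the count filter, 2.38 with DESeq2 and 2.43 over all barcodes, and its log2 difference lay between -0.88 and 2.84 when a library was left out. The -0.88 came without PTB Tbx1+/- replicate 1, which leaves as the lone Tbx1+/- PTB library the one with 0 Pax7 UMIs. The test of unequal genotype differences gave 0 calls in every alternative, 0 to 0 when a library was left out.

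Small genotype differences changed sign. With nuclei of at least 2000 genes Pax1 in CT1 was at 0.20 and Pax3 in GABA.interneuron.progenitor at -0.012. When a library was left out, Pax1 in CT1 ran from -0.65 to 0.62, Pax2 in Diff.GABA.interneuron from -0.29 to 0.12, Pax3 in GABA.interneuron.progenitor from -0.18 to 0.27 and Pax6 in GNP from -0.15 to 0.29. Pax9 in CT1 stayed between -1.19 and -0.58 and Pax3 in CP4 between 2.91 and 4.14. Pax2 in Diff.GABA.interneuron was at 492 CPM in nuclei with at least 2000 genes. The other levels moved by less than their SD, but that of Pax7 in CT1 changed from 4.40 CPM to 2.13 CPM in nuclei with at least 2000 genes and to 2.46 CPM without PTB WT replicate 1. Depth limits the genes with few UMIs in annotated nuclei, such as Pax7 and Pax8 in both tissues.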
